A study of Mus musculus with 14 samples.

Results

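The long noncoding RNAs *Malat1*, *Neat1*, *Miat*, *Gas5*, *Snhg1*, *Snhg12*, *Epb41l4aos* and *Dancr* were followed in mouse intervertebral discs. These 8 genes were selected by name from the 55487 genes of the count table, and all 8 were among the 16915 genes that exceeded 1 CPM (counts scaled to a common library total) in at least 3 libraries. RNA was sequenced from tail discs of 14 male mice, with 5 discs pooled per mouse and 1 library per mouse. The db/db mice (n = 3) were homozygous for the db mutation of the leptin receptor gene *Lepr* and their db/+ littermates (n = 3) were heterozygous, so the controls also carried a mutant copy, and both groups were 3 months old. The STZ-HFD mice (n = 4) were C57BL/6J animals, 12 weeks old at entry, fed a high-fat diet for 4 to 6 weeks, injected once with 100 mg/kg streptozotocin, a toxin of the insulin-producing β cells, and kept on the diet for a further 12 weeks. Their Con+Veh controls (n = 4), wild type by label, received chow and citrate buffer. The sample labels give the high-fat diet as 80% of calories from fat, and the study's methods give a lower share. The db/db and STZ-HFD groups were set only against db/+ and Con+Veh, respectively, since the cohorts also differed in age, genotype and diet. The question was whether these RNAs differed between diabetic and control discs.

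Long noncoding RNAs are transcribed and processed much like messenger RNAs but are not known for a protein product. *Malat1* RNA stays in the nucleus at nuclear speckles, bodies rich in splicing factors, and *Neat1* RNA is the scaffold around which paraspeckle proteins assemble a separate nuclear body. *Gas5*, *Snhg1*, *Snhg12*, *Epb41l4aos* and *Dancr* contain genes for small nucleolar RNAs (snoRNAs), which are cut from the host transcript and guide the modification of ribosomal RNA. The spliced remainder of several such hosts starts with a pyrimidine run of the kind that couples translation to growth signals, and is degraded by nonsense-mediated decay when it is translated.

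Annotated transcript starts differed among the genes in this respect. RefSeq starts were available for 6 of the 8 genes (7 starts), and 5 of them are shown: those of *Gas5* and *Snhg1*, hosts whose db/db and db/+ libraries did not overlap, of *Snhg12*, a host whose libraries did, and of *Malat1*, which holds no snoRNA. Each window runs 5′ to 3′ from 20 bases before the first transcribed base through the 30 bases that begin with it, on GRCm38.p6, and capitals mark a run that starts with C, continues with at least 4 further C or T, and begins within 5 bases of the start.
Gas5, upstream start, chr1:161034581-161034630, plus strand: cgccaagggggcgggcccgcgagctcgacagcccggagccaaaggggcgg
Gas5, downstream start, chr1:161035146-161035195, plus strand: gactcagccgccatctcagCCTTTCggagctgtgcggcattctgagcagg
Snhg12, chr4:132308658-132308707, plus strand: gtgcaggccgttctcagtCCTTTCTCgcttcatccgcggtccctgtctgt
Snhg1, chr19:8723467-8723516, plus strand: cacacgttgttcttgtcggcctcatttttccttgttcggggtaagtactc
Malat1, chr19:5802643-5802692, minus strand: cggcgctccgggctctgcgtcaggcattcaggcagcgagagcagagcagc
The downstream *Gas5* start carried a run of 6 bases and the *Snhg12* start a run of 8. The *Miat* start also carried one, of 7 bases, whereas neither *Dancr* nor *Malat1* did, and the pyrimidines at the *Snhg1* start were interrupted too early to meet the definition. Thus 3 of 7 starts (42.9%) carried a run, beside 6027 of 32851 starts of all genes (18.3%), 6 of 15 starts of 14 other noncoding snoRNA hosts and 4 of 19 starts of protein-coding snoRNA hosts (21.1%). The run was searched on the transcribed strand alone, and its presence describes the annotated start, not where these disc transcripts began.

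The 8 genes were of very different size and architecture in the GENCODE M21 annotation of GRCm38. *Malat1* (ENSMUSG00000092341, chromosome 19 from 5795690 to 5802672, minus strand) and *Neat1* (ENSMUSG00000092274, chromosome 19 from 5824708 to 5845478, minus strand) are neighbours annotated as covered by exon along their whole spans of 6983 and 20771 bases. *Miat* (ENSMUSG00000097767, chromosome 5 from 112213228 to 112229395, minus strand) has 9293 exonic bases. The snoRNA hosts are shorter: *Gas5* (ENSMUSG00000053332, chromosome 1 from 161034422 to 161038539) has 3760 exonic bases, *Snhg1* (ENSMUSG00000108414, chromosome 19 from 8723475 to 8726443) has 2969, *Snhg12* (ENSMUSG00000086290, chromosome 4 from 132308623 to 132311024) has 2402 and *Dancr* (ENSMUSG00000106943, chromosome 5 from 74093060 to 74095406) has 2347, all on the plus strand. *Epb41l4aos* (ENSMUSG00000087590, chromosome 18 from 33794892 to 33795986, plus strand) is the shortest, with 430 exonic bases. Exonic length here is the union of all annotated transcripts, including those that retain introns, so values per kilobase understate a fully spliced host transcript.

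Library totals ranged from 16076908 to 58943169 counts, of which 8945906 to 35031712 lay outside ribosomal RNA genes. Mitochondrial ribosomal RNA took 3.62% to 4.86% of counts in db/+, 6.40% to 8.71% in db/db, 6.99% to 21.8% in Con+Veh and 5.07% to 21.1% in STZ-HFD, with the highest shares in Con+Veh 2 and STZ-HFD 4. The weight that limma estimated for each library was lowest in Con+Veh 1 (0.275) and highest in Con+Veh 3 (3.05), so fitted fold changes in the STZ-HFD model leaned on Con+Veh 3. All 7 markers of disc cartilage matrix were detected, with summed levels of 5353 to 23216 CPM in the db cohort and 619 to 3308 CPM in the other, and the 7 skeletal muscle markers summed to 2709 to 20040 CPM over all libraries, so muscle RNA was present in the libraries. The total count of *Lepr*, 309 to 534 in db/db and 374 to 472 in db/+, cannot check a point mutation.

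The order of expression was set by *Malat1* and *Neat1* in every group. On a CPM scale, *Neat1* ranked 9 to 57 and *Malat1* 21 to 81 among 16909 tested genes outside ribosomal RNA, while the other 6 genes ranked between 1865, the best rank of *Gas5*, and 15817, the lowest rank of *Dancr*. By this measure *Malat1* and *Neat1* were abundant and the other 6 were not. Per kilobase of exon, the mean level in db/+ discs was 137 ± 26.8 CPM/kb for *Malat1* and 136 ± 79.0 for *Neat1* (SD, n = 3), which did not differ beyond their spread. *Epb41l4aos* came next at 7.80 ± 0.660 CPM/kb and *Gas5* at 4.33 ± 0.759, without overlap between them. By CPM their order was the reverse, with means of 3.35 and 16.3 in db/+. Their order per kilobase thus rests on the annotated exonic lengths, 430 bases against 3760 with retained introns included. *Snhg1* (1.65 ± 0.507), *Snhg12* (1.03 ± 0.371), *Dancr* (0.564 ± 0.195) and *Miat* (0.407 ± 0.0281) followed, and each of these overlapped with its neighbour in the order. In db/db discs *Neat1* (137 ± 40.2 CPM/kb) and *Malat1* (114 ± 30.4) again overlapped, and *Epb41l4aos* stood at 15.0 ± 2.06. In the other cohort every library had *Malat1* above *Neat1* per kilobase, with 193 ± 37.6 against 75.3 ± 35.9 CPM/kb in Con+Veh and 211 ± 32.8 against 104 ± 36.8 in STZ-HFD (SD, n = 4). *Epb41l4aos* (13.9 ± 8.30 and 17.8 ± 5.59) and *Gas5* (6.34 ± 3.38 and 7.61 ± 1.29) were again next in the order, with overlap in Con+Veh.

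**Figure D1:**
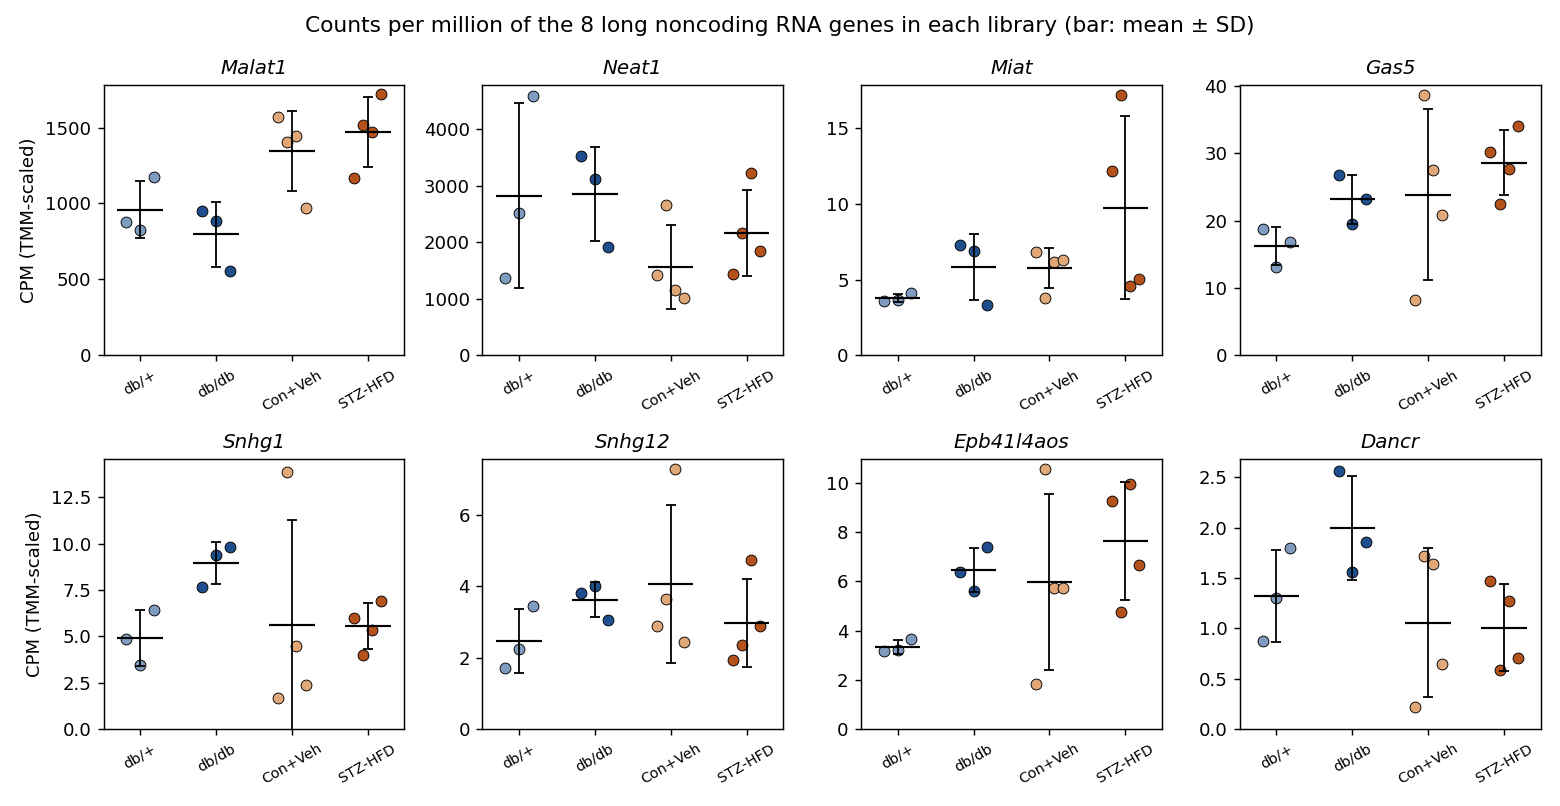
CPM (TMM-scaled, linear axes from 0) of each gene in each of the 14 libraries; points are mice and black bars the group mean ± SD, the lower bar of *Snhg1* in Con+Veh ending at the axis. In *Gas5*, *Snhg1* and *Epb41l4aos* the 3 db/db points lie above all 3 db/+ points, and in these genes Con+Veh libraries span the widest range.

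*Malat1*, the nuclear speckle RNA, was measured at 878.1, 826 and 1173 CPM in db/+ and at 949, 885 and 554 CPM in db/db. In Con+Veh it was 1571, 1407, 1443 and 967 CPM, and in STZ-HFD 1168, 1517, 1474 and 1723 CPM. The groups overlapped in both models. Each library held 17907 to 75871 counts of it. The log2 fold change was -0.27 ± 0.28 (SE; 95% interval -0.87 to 0.33) in db/db and 0.28 ± 0.24 (-0.22 to 0.77) in STZ-HFD. The db/db value was -0.023 without db/db replicate 3 and -0.54 with the GC content trend of each library removed, and the STZ-HFD value was 0.081 without Con+Veh replicate 4 and 0.13 with edgeR. The intervals therefore left room for changes of 0.548-fold to 1.25-fold in db/db and of 0.859-fold to 1.71-fold in STZ-HFD.

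*Neat1*, the paraspeckle scaffold, varied more among mice of a group. It was measured at 1363, 2522 and 4601 CPM in db/+, a 3.38-fold range among 3 littermate controls, and at 3525, 3115 and 1917 CPM in db/db. Con+Veh libraries held 1429, 2655, 1155 and 1020 CPM and STZ-HFD libraries 1436, 2167, 3223 and 1847 CPM. All 4 STZ-HFD libraries were above 3 of the 4 Con+Veh libraries, and Con+Veh 2 overlapped with them. The log2 fold change in STZ-HFD was 0.94 ± 0.33 (95% interval 0.25 to 1.63; unadjusted p = 0.0109, adjusted p = 0.129, limma), and it did not pass the threshold. That value depended on library weights, since edgeR's quasi-likelihood test gave 0.47, DESeq2 0.48 and limma without quality weights 0.54. In db/db the log2 fold change was 0.18 ± 0.43 (-0.73 to 1.09), and it was -0.28 without db/+ replicate 1.

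Within a library the ratio of *Neat1* to *Malat1* does not depend on library size. *Neat1* had more counts than *Malat1* in 12 of 14 libraries, but per kilobase of exon it was above *Malat1* in only 5 of 14. Those 5 were the 3 db/db libraries (1.16 to 1.25) and db/+ 2 and 3 (1.03 and 1.32), while db/+ 1 had a ratio of 0.522. The 3 db/db libraries were thus tightly grouped inside the wider db/+ range. In Con+Veh the ratio ran from 0.269 to 0.634 and in STZ-HFD from 0.360 to 0.735, and these ranges overlapped. The gap between cohorts, which differ in age, mouse line and depth, was not tested.

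**Figure D2:**
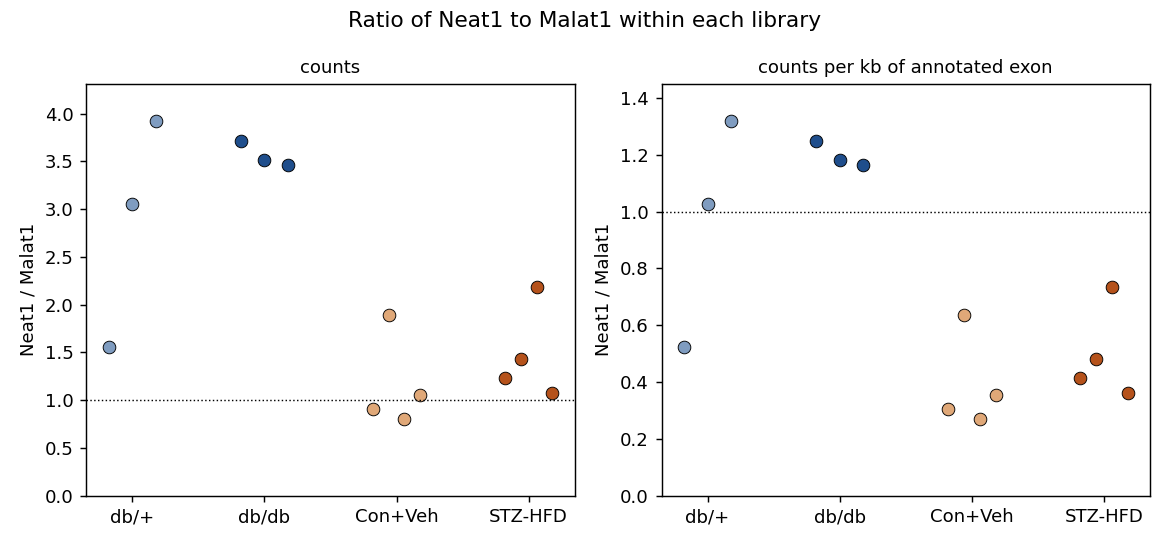
Ratio of *Neat1* to *Malat1* in each library (points), from counts on the left and from counts per kilobase of annotated exon on the right; the dotted line marks equality. On the right, 5 of 6 libraries of the db cohort lie above 1 and 0 of 8 libraries of the STZ-HFD cohort do.

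*Miat*, a further nuclear long noncoding RNA without a snoRNA, was measured at 3.61, 3.65 and 4.08 CPM in db/+ and at 7.28, 6.90 and 3.31 CPM in db/db. It was at 6.81, 3.80, 6.17 and 6.27 CPM in Con+Veh and at 12.2, 17.2, 4.60 and 5.06 CPM in STZ-HFD. In each diabetic group 2 libraries stood above all of their controls and the remainder lay within or below the control range. The log2 fold change was 0.54 ± 0.38 in db/db, and 0.12 ± 0.37 was found for STZ-HFD. The latter was 0.76 with edgeR, 0.78 with DESeq2 and 0.58 in limma without quality weights, none at an unadjusted p under 0.05, and -0.16 in limma without STZ-HFD replicate 2, so neither its size nor its sign was settled. The db/db value was 0.91 without db/db replicate 3 and 0.87 with the GC trend removed. A gene on the opposite strand, Gm26953, overlaps *Miat*, and held 11 counts over all libraries.

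*Gas5*, whose RNA accumulates when growth slows, was the most expressed of the hosts by CPM. It was measured at 18.8, 13.2 and 16.8 CPM in db/+ and at 26.8, 19.5 and 23.2 CPM in db/db, so every db/db library was above every db/+ library. In Con+Veh it was 8.24, 38.6, 27.5 and 20.9 CPM and in STZ-HFD 30.2, 22.5, 27.7 and 34.0 CPM. The Con+Veh libraries were both the lowest and the highest of the cohort. The log2 fold change in db/db was 0.53 ± 0.28 (95% interval -0.05 to 1.11; adjusted p = 0.28, limma), or 1.44-fold. With the GC content trend of each library removed, the db/db value was 0.26. In STZ-HFD it was 0.25 ± 0.24 (-0.26 to 0.77), and 0.095 to 0.48 when single libraries were left out. The 5′ end of *Gas5*, where the gene *Zbtb37* (6028 counts over all libraries) overlaps it on the opposite strand up to position 161034849, cannot be told apart from that gene without strand.

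*Snhg1* had the same arrangement. It was at 4.86, 3.42 and 6.43 CPM in db/+ and at 7.67, 9.37 and 9.80 CPM in db/db, without overlap. In Con+Veh it was 1.68, 13.9, 4.49 and 2.38 CPM, an 8.29-fold range that enclosed the 6.01, 3.97, 5.34 and 6.92 CPM of STZ-HFD. The db/db log2 fold change was 0.94 ± 0.34 (95% interval 0.22 to 1.66; unadjusted p = 0.0131, adjusted p = 0.133, limma), or 1.92-fold. With the GC content trend of each library removed it was 0.56. In STZ-HFD the log2 fold change was 0.46 ± 0.40, it was 0.86 without Con+Veh replicate 2 and 0.06 without Con+Veh replicate 4, and edgeR gave -0.024.

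*Epb41l4aos*, the shortest host, was at 3.16, 3.22 and 3.68 CPM in db/+ and at 6.39, 5.63 and 7.39 CPM in db/db. The gap between the groups exceeded the spread inside either group. It was at 1.84, 10.6, 5.75 and 5.73 CPM in Con+Veh and at 9.28, 4.75, 9.95 and 6.65 CPM in STZ-HFD, and here Con+Veh again held the lowest and the highest library. The db/db log2 fold change was 0.94 ± 0.31 (95% interval 0.28 to 1.60; unadjusted p = 0.0079, adjusted p = 0.109, limma), or 1.92-fold, and it ranged from 0.84 to 1.04 when single libraries were left out and was 1.27 (adjusted p = 0.0769, limma) with the GC trend removed. In STZ-HFD it was 0.38 ± 0.30 (-0.25 to 1.02), and it fell to 0.14 without STZ-HFD replicate 3.

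*Snhg12* and *Dancr* were the least counted hosts. *Snhg12* was at 1.71, 2.23 and 3.45 CPM in db/+, at 3.80, 4.00 and 3.06 CPM in db/db, at 2.89, 3.64, 7.29 and 2.43 CPM in Con+Veh and at 1.92, 2.36, 4.73 and 2.90 CPM in STZ-HFD. *Dancr* was at 0.877, 1.30 and 1.79 CPM in db/+, at 2.57, 1.56 and 1.86 CPM in db/db, at 0.216, 1.72, 1.64 and 0.648 CPM in Con+Veh and at 1.47, 0.581, 1.27 and 0.7097 CPM in STZ-HFD. The groups overlapped for both genes in both models. *Dancr* rested on 8 to 164 counts per library, the lowest being Con+Veh 1, and an antisense gene at its 5′ end, Gm43416, held 24 counts over all libraries. *Snhg12* had log2 fold changes of 0.60 ± 0.40 in db/db and -0.49 ± 0.40 in STZ-HFD, and *Dancr* 0.58 ± 0.40 and -0.31 ± 0.59. Without Con+Veh replicate 3, which has the largest weight, the STZ-HFD values became 0.19 for *Snhg12* and 0.26 for *Dancr*. The negative sign of *Snhg12* thus rested on that mouse. That of *Dancr* was also lost without quality weights and without Con+Veh 2 and STZ-HFD 4 together.

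Across the genes, limma called 0 of 8 in db/db discs, where a call required both an adjusted p under 0.05 and a log2 fold change of 1 or more in size. Of all 16915 genes tested, 1.23% were called up and 0.432% down. These 208 and 73 calls fell to between 12 and 96 up and between 2 and 47 down when any one of the 6 libraries of the db cohort was left out, with the fewest up without db/+ replicate 2 and the fewest down without db/db replicate 2. An unadjusted p under 0.05 was reached by 2 of the 8 (*Epb41l4aos* and *Snhg1*) with limma, by 1 with DESeq2 and by 0 with edgeR, and these tools also called 0 of 8. Of all 16915 genes, 3572 reached it with limma, a share close to 2 of 8, 2138 with DESeq2 and 1891 with edgeR. Over all these genes DESeq2 called 158 up and 53 down, whereas edgeR called 0 up and 0 down. A count of 0 by edgeR in db/db, for the 8 genes or any list below, therefore carries no information about them. The point estimates were positive for 7 of 8, all but *Malat1*, with a median of 0.56 on the log2 scale against -0.04 over all genes tested. Groups did not overlap for 3 of the 8 genes (*Gas5*, *Snhg1* and *Epb41l4aos*), all with db/db above db/+. The same held for 14.1% of all genes tested, and 11.7% had db/db wholly below db/+, as did 0 of the 8. The same 3 genes separated when counts were scaled by the total outside ribosomal RNA, a scaling added after the data were seen, under which 19.1% of all genes were wholly higher and 7.38% wholly lower. Mitochondrial ribosomal RNA shares and the summed level of 6 adipocyte markers (79.7 to 121 CPM in db/+, 247 to 433 CPM in db/db) were also higher in every db/db library than in any db/+ library. All 6 adipocyte markers separated in this way, 4 were called up by limma and by DESeq2 and 0 by edgeR, and none of the 6 was at 0. All 7 muscle markers had negative fold changes, with 1 called down by limma, 1 by DESeq2 and 0 by edgeR. All 6 osteoblast markers were negative too, 3 of them wholly lower in db/db and 0 called. Of 6 tested nucleus pulposus markers only 1 was positive, with a median of -1.02, 0 wholly lower and 0 called by any of the 3 tools. An unadjusted p under 0.05 was reached there by 1 with limma, 3 with edgeR and 4 with DESeq2. DESeq2 also called *Tnmd* of the annulus and tendon list up. Their part in the result was not tested. In bulk tissue a change in the number of cells of a type and a change in RNA per cell cannot be told apart.

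In STZ-HFD discs limma likewise called 0 of 8, against 1.3% of all genes called up and 1.31% called down. This background of 220 and 221 calls rested on single libraries, being 3 up and 14 down without Con+Veh replicate 3, 4 and 14 without Con+Veh replicate 4, 3 and 15 without STZ-HFD replicate 3 and 64 and 100 without STZ-HFD replicate 4. *Neat1* alone reached an unadjusted p under 0.05 with limma, and none of the 8 did with edgeR or DESeq2, which called 0 of 8. Of all 16915 genes, 3025 reached it with limma, 2136 with edgeR and 2343 with DESeq2. Over all these genes edgeR called only 6 up and 23 down in STZ-HFD, and DESeq2 122 and 150, so 0 of 8 by edgeR says little. The median log2 fold change was 0.27 against -0.04 over all genes, with 6 of 8 positive. No gene of the 8 separated in either direction, compared with 1.97% of all genes wholly higher and 2.77% wholly lower in STZ-HFD. Con+Veh 1 and 2 were the lowest and the highest library of their group in *Gas5*, *Snhg1* and *Epb41l4aos*, so the control spread rather than the STZ-HFD spread set the width of these groups. With Con+Veh 2 and STZ-HFD 4 left out, whose mitochondrial ribosomal RNA shares were the highest and whose library names alone end in RIP, 0 of 8 were called. In that fit 68 of 16826 genes tested were called up and 176 down. The summed cartilage matrix markers were lower in STZ-HFD (619 to 1312 CPM) than in Con+Veh (1404 to 3308 CPM), with 5 of 7 called down by limma, 3 by DESeq2 and 0 by edgeR. Of the other marker lists in this model, limma called 2 of 7 muscle markers up. It called 2 of 6 macrophage, 2 of 6 osteoblast and 1 of 6 annulus and tendon markers down. In these lists edgeR called 0 genes, and DESeq2 called 1 down, *Mkx* of the annulus and tendon list. The part of these cells in the values of the 8 genes was not tested.

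**Figure D3:**
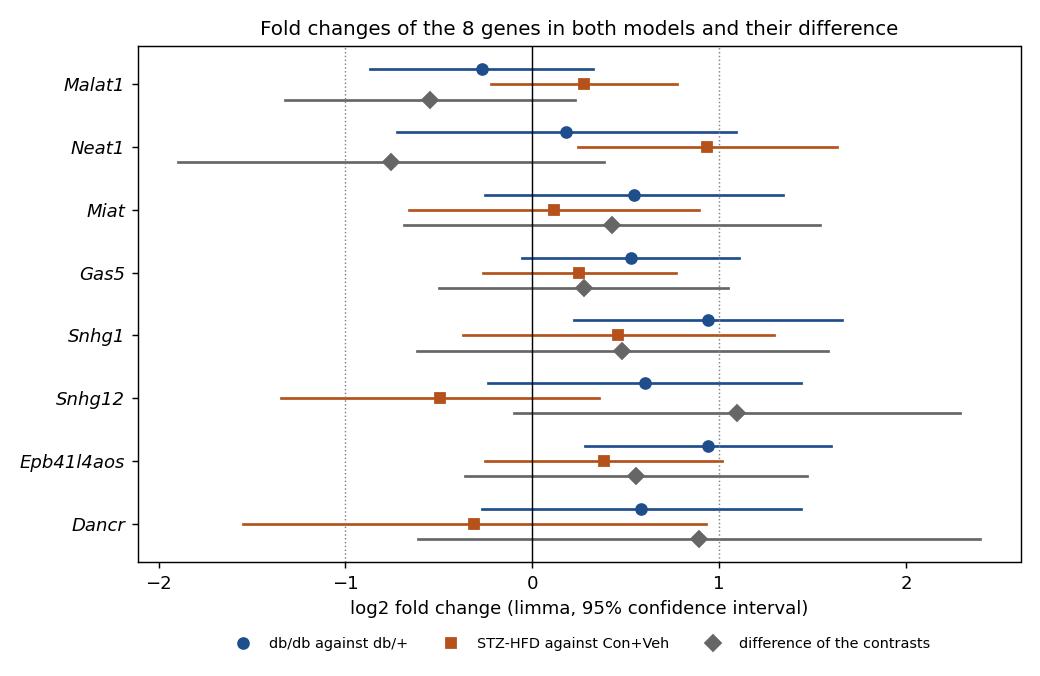
Log2 fold changes (points) with 95% confidence intervals (lines) from limma for each gene, in db/db (circles), in STZ-HFD (squares) and for the difference between them (diamonds); dotted lines mark the fold minimum of 1 on the log2 scale. Only *Snhg1* and *Epb41l4aos* in db/db and *Neat1* in STZ-HFD have intervals that exclude 0 before adjustment over all genes.

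The difference between the models (the db/db log2 fold change minus that in STZ-HFD) was called for 0 of 8 genes by limma, against 0.816% of all genes called with a positive and 0.952% with a negative difference. An unadjusted p under 0.05 was reached by 0 of 8 with limma, edgeR and DESeq2 alike, beside 2926, 1991 and 2204 of all 16915 genes. The largest point estimate was that of *Snhg12*, 1.097 ± 0.57 (95% interval -0.10 to 2.29; adjusted p = 0.336, limma), and the most negative was that of *Neat1*, -0.76 ± 0.54 (-1.90 to 0.39; adjusted p = 0.514, limma). The difference of *Snhg12* was 0.41 without Con+Veh replicate 3 and 1.43 without STZ-HFD replicate 3, and that of *Neat1* was -1.22 without db/+ replicate 1 and -0.37 without db/+ replicate 3. For *Gas5* the difference was 0.27 ± 0.37 (-0.50 to 1.05). A response particular to one model was thus not shown, and for each of the 8 genes the interval of the difference reached beyond 1 in size on the log2 scale in one direction.

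Other noncoding hosts were examined as a list of 16, of which 12 could be tested. Limma, edgeR and DESeq2 called 0 of 12 in either model, while 4 had an unadjusted p under 0.05 with limma in db/db, as did 1 in STZ-HFD. Of all 16915 genes, 3572 and 3025 had such a p with limma, a background that also holds for the lists below. All db/db libraries lay above all db/+ libraries for 4 of 12 (*Zfas1*, *Snhg5*, *Snhg10* and *Snhg18*) and below them for 0, beside the 14.1% and 11.7% of all genes. The 2 most expressed were *Snhg18*, at 24.3 to 29.6 CPM in db/+ and 40.3 to 51.7 CPM in db/db (log2 fold change 0.69 ± 0.23, adjusted p = 0.104, limma), and *Snhg5*, at 6.04 to 10.5 CPM and 14.1 to 14.5 CPM (0.78 ± 0.26, adjusted p = 0.103, limma). The median log2 fold change of the list was 0.25 in db/db and 0.12 in STZ-HFD.

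Many snoRNAs lie instead in genes for ribosomal proteins and translation factors. Of 28 such protein-coding hosts, limma called 2 up and 0 down in db/db discs, *Rps20* and *Rps13*, which encode proteins of the small ribosomal subunit. *Rps20* was at 98.6 to 107 CPM in db/+ and 235 to 343 CPM in db/db (log2 fold change 1.52 ± 0.30, adjusted p = 0.0228, limma). *Rps13* was at 25.3 to 31.8 and 46.0 to 66.6 CPM (1.02 ± 0.23, adjusted p = 0.0343, limma). *Rps20* was no longer called without db/+ replicate 2 or 3 or db/db replicate 1 or 3 (1.42 to 1.54, adjusted p = 0.0516 to 0.0908, limma), nor was *Rps13* without any one of the 6 libraries of the db cohort (0.91 to 1.17, adjusted p = 0.0507 to 0.121, limma). DESeq2 called *Rps20* alone and edgeR neither, and reads of ribosomal protein genes can be shared with processed pseudogenes. In db/db 6 of 28 had an unadjusted p under 0.05 by limma. Of the 28, 6 were wholly higher and 0 wholly lower in db/db, beside 14.1% and 11.7% of all genes. In STZ-HFD 0 of 28 were called by any of the 3 tools, with 4 at an unadjusted p under 0.05 by limma. The list median was 0.11 for db/db against -0.23 for STZ-HFD. The 2 most expressed hosts, the elongation factor gene *Eef2* and the ribosomal protein gene *Rpl4*, had log2 fold changes of -0.94 and 0.55 in db/db and of -0.19 and -0.19 in STZ-HFD, none called.

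The genes for protein partners of these RNAs showed no calls. Only their transcripts were counted, and protein was not measured. Among 8 proteins of the snoRNA particles, limma, edgeR and DESeq2 called 0 in either model, with 3 at an unadjusted p under 0.05 by limma in db/db, as was 1 in STZ-HFD. The 2 most expressed were *Dkc1*, the pseudouridine synthase (0.23 in db/db, 0.04 in STZ-HFD), and *Nop56*, a core protein of box C/D particles (-0.50 and 0.25), and the list median was 0.33 and 0.15. *Nop58*, the partner of *Nop56*, named here after its values were seen, was at 10.9 to 13.2 CPM in db/+ and 15.4 to 17.8 in db/db, and at 18.2 to 22.6 in Con+Veh and 12.4 to 16.4 in STZ-HFD, without overlap in either model. Of all genes, 14.1% were wholly higher in db/db and 2.77% wholly lower in STZ-HFD. The log2 fold changes of *Nop58*, 0.44 and -0.55 (adjusted p = 0.175 and 0.0767, limma), were not called. Their difference, 0.99 ± 0.24 (adjusted p = 0.0479, limma), missed only the fold minimum. For the difference, edgeR and DESeq2 called 0 of these 8 genes. Over all genes limma's 138 and 161 calls for it became 5 and 0 with edgeR and 14 and 8 without db/+ replicate 2. *Nop58* itself was not examined with libraries left out. Of 14 nonsense-mediated decay factors 0 were called by the 3 tools, with 3 and 0 at an unadjusted p under 0.05 by limma, and *Smg1*, the kinase that phosphorylates Upf1, had log2 fold changes of 0.09 and 0.02, and the list median was 0.05 and 0.07. Of 12 paraspeckle proteins 0 were called, with 2 and 0 at an unadjusted p under 0.05, and the most expressed, *Smarca4* and *Hnrnpk*, were at -0.63 and 0.30 in db/db and at -0.22 and 0.06 in STZ-HFD, around list medians of -0.02 and 0.06. Of 14 nuclear speckle proteins 0 were called, with 1 and 4 at an unadjusted p under 0.05, and *Srrm2* and *Son*, which hold the speckle together, were at -0.36 and -0.07 in db/db and at -0.16 and -0.01 in STZ-HFD. The speckle list had medians of -0.00 and 0.21, and edgeR and DESeq2 called 0 genes of these 4 lists.

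Among 16 further long noncoding RNAs, 0 were called in db/db by the 3 tools, with 2 at an unadjusted p under 0.05 by limma, and 1 fell in STZ-HFD. This was *Rian*, a maternally expressed imprinted RNA, at 9.51 to 30.3 CPM in Con+Veh and 5.10 to 16.8 CPM in STZ-HFD (log2 fold change -1.26 ± 0.33, adjusted p = 0.0416, limma). Its groups overlapped, edgeR and DESeq2 did not call it, and it was not called without any one of Con+Veh replicates 3 and 4, STZ-HFD replicates 2, 3 and 4 and the 3 db/db libraries (-1.60 to -0.81, adjusted p = 0.0508 to 0.582, limma). The 2 most expressed, *Meg3* and *Oip5os1*, had log2 fold changes of -0.29 and 0.60 in db/db and of -0.17 and 0.66 in STZ-HFD, and the list median was -0.05 and 0.10. Of 4 stable small noncoding RNA genes, only *Rn7sk*, the 7SK RNA that restrains transcription elongation, could be tested, with log2 fold changes of -0.01 in db/db and -0.53 in STZ-HFD.

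**Figure D4:**
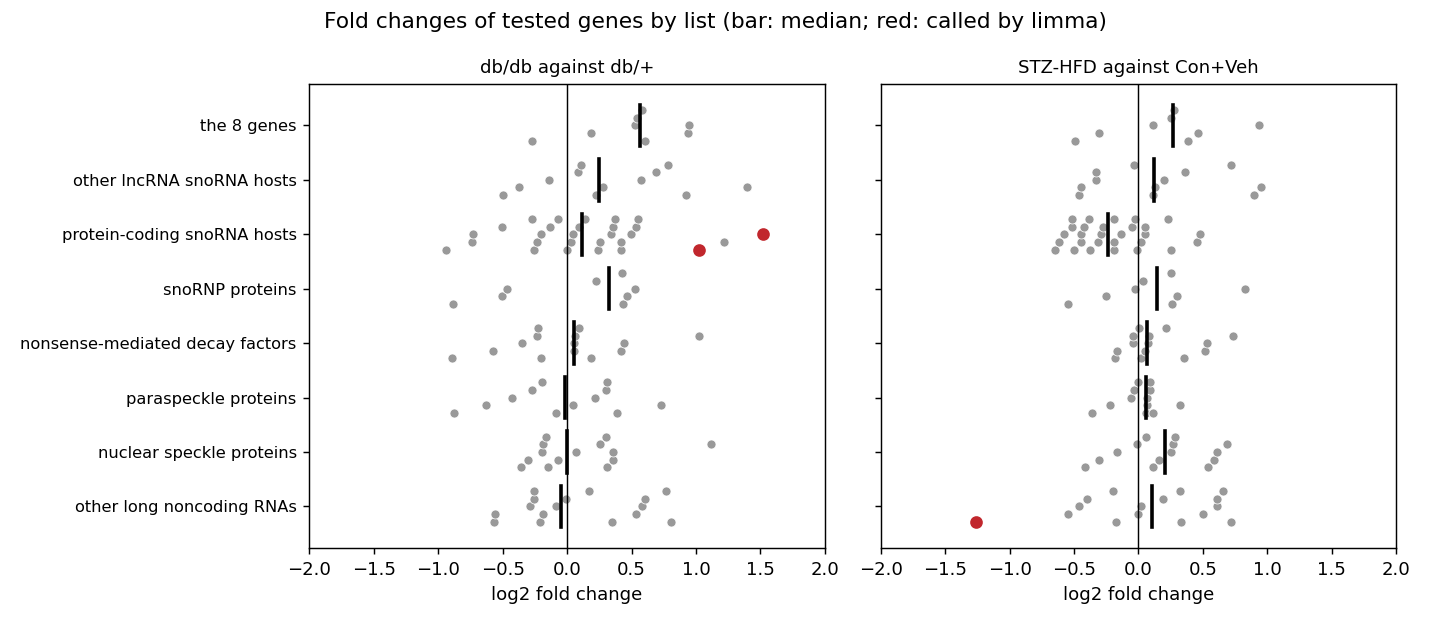
Log2 fold changes (limma) of the 8 genes and of each tested gene of 7 related lists, in db/db on the left and STZ-HFD on the right; points are genes, black bars list medians, and red points are called genes. *Rps20* and *Rps13* in db/db and *Rian* in STZ-HFD are the only red points.

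The snoRNAs inside the hosts could not be followed in these counts. The annotation places 25 snoRNA gene entries within 5 of the 8 genes, 10 in *Gas5*, 8 in *Snhg1*, 5 in *Snhg12* and 1 each in *Epb41l4aos* and *Dancr*. *Snord80* in *Gas5* and *Snora16a* in *Snhg12* are each entered more than once at overlapping positions. Of the 25 entries, 24 lie inside an annotated exon of the host, because transcripts that retain introns are annotated. All 24 had 0 counts in all 14 libraries. The remaining one, Gm23639 in an intron of *Epb41l4aos*, had 12 counts over 4 libraries. The same pattern held throughout the table, in which 1 of 157 snoRNA genes lying inside an exon on their own strand had any count (0.637%), against 609 of 1336 lying inside no exon of another gene (45.6%). Of 14 lying inside an exon on the other strand only, 1 had a count (7.14%). featureCounts by default leaves out a read that overlaps more than 1 gene, and the setting used is not given in the sources used here. A count of 0 for these snoRNAs therefore does not measure their level, and reads over these intervals may be missing from the hosts as well.

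Over the 14 libraries, the Pearson correlation of log2 CPM among *Gas5*, *Snhg1*, *Epb41l4aos* and *Dancr* ran from 0.54 to 0.91, highest between *Gas5* and *Epb41l4aos*. *Snhg12* had correlations of 0.26 to 0.37 with these 4 hosts. Among *Malat1*, *Neat1* and *Miat* the values ran from -0.18 to 0.38, with -0.05 between *Malat1* and *Neat1*. *Neat1* had correlations of 0.52 with *Snhg1* and 0.50 with *Dancr*, above those of *Snhg12*. The libraries share cohort, depth and RNA quality, so these values are descriptions of 14 points. The 2 genes most like each one in this measure were *Capza2* (0.96) and *Eif2s1* (0.95) for *Epb41l4aos*, *Mrpl18* (0.94) and *Psmc6* (0.93) for *Gas5*, *Gtf2h1* and *Fam8a1* (0.92 and 0.91) for *Snhg1*, *Wdr76* and *Hoxb13* (0.92 and 0.91) for *Dancr*, and Gm38372 and *Wrn* (0.84 and 0.82) for *Snhg12*. For the nuclear RNAs they were Myhas and *Dpf3* (0.93 and 0.92) for *Malat1*, Gm49474 and 5330406M23Rik (0.87 and 0.86) for *Neat1*, and *Duox1* and *Chac2* (both 0.86) for *Miat*.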

How the data were processed

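Each library's group and number come from its GEO title. Per the labels, cDNA was amplified from total RNA with a SeqPlex kit; the submitters' processing notes name STAR, featureCounts of the Subread package and Salmon, with GRCm38. The authors deposited raw gene counts, used here, and transcript estimates, not used here. In the gene table, 287 repeated identifiers with identical counts were used once. Whether counting used strand is not given in the sources used here.

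Counts were analysed in R 4.3.3 with edgeR 4.0.16 (TMM factors) and limma 3.58.1 (voomWithQualityWeights, as in the study's methods) on all 14 libraries, with a mean per group. Genes above 1 CPM in at least 3 libraries were kept. Adjusted p-values follow Benjamini-Hochberg over 16915 genes within a contrast, and a call needs an adjusted p under 0.05 together with a log2 fold change of 1 or more in size. CPM were scaled by the library total times its TMM factor, and correlations used a prior count of 2. Depth was 16076908 to 58943169 counts per library, so 3 counts correspond to 0.0509 to 0.187 CPM of the library total, which covers counting error only. No replicates repeated the same counts (chi-square per degree of freedom of 54.8 to 578 over 18 pairs). Each library is a separate mouse. Scripts were tested on simulated data.

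The genes and lists were chosen with earlier results of these data known. From each list, called genes were named, or else the 2 with the highest mean CPM. One gene that this rule names is not reported here. A name outside this rule was chosen after its values were seen. Sequences are RefSeq's for GRCm38.p6. The other settings tried were DESeq2 1.42.0, edgeR's quasi-likelihood test, voom without quality weights, RLE size factors, other low-count filters, separate fits, a replicate block, no fold minimum, removal of ribosomal RNA genes or of the GC trend (20 bins), and leaving out libraries.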

Additional observations from a re-analysis of the deposited data

How the results depend on the processing

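The counts of called genes were 0 of 8 in db/db and in STZ-HFD under all 26 alternatives and 0 of 8 for their difference under all 25. Of 592 refitted log2 fold changes of the 8 genes, 582 kept their sign and remained uncalled. The 10 that changed sign in the refits remained uncalled as well: edgeR's quasi-likelihood test gave -0.024 for *Snhg1* in STZ-HFD and -0.14 for the difference of *Miat*, for which DESeq2 gave -0.14 and voom without quality weights -0.044. *Dancr* in STZ-HFD was 0.19 without quality weights and 0.11 without Con+Veh 2 and STZ-HFD 4. When single libraries were left out, *Neat1* in db/db ranged from -0.28 to 0.57, and in STZ-HFD *Miat* ranged from -0.16 to 0.51, *Snhg12* from -0.83 to 0.19 and *Dancr* from -0.58 to 0.26. The cause was not tested.

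With the replicate number as a replicate block, 0 of 8 genes were called, with 6 at an unadjusted p under 0.05 in db/db. In that fit 5940 of all 16915 genes had such a p in db/db. *Epb41l4aos* (0.97, adjusted p = 0.0131, limma) and *Snhg1* (0.80, adjusted p = 0.0366, limma) passed the adjusted p there without reaching the fold minimum. Same-numbered libraries did not deviate together (Pearson r of -0.28 to 0.19 over 3 db pairs and -0.26 to -0.04 over 4 other pairs). Differently numbered libraries had r of -0.28 to 0.45 and -0.17 to 0.26. So few pairs cannot decide whether the numbers pair the mice. Of the other calls named, *Rps20* was kept under 19 of 25 alternatives, *Rps13* under 15 and *Rian* under 10. The calls over all genes moved more: limma's 208 up and 73 down in db/db and 220 and 221 in STZ-HFD became 0 and 0 (1891 genes at an unadjusted p under 0.05) and 6 and 23 with edgeR, 158 and 53 and 122 and 150 with DESeq2, 7 and 2 and 3 and 16 without quality weights, 184 and 52 and 103 and 114 with filterByExpr, 357 and 177 and 95 and 35 without a filter, 357 and 79 and 148 and 139 with each model fitted alone, 160 and 24 and 276 and 219 without the GC trend, 290 and 98 and 68 and 176 without Con+Veh 2 and STZ-HFD 4, and 796 and 688 and 387 and 611 with the replicate block. For the difference, limma's 138 and 161 became 5 and 0 with edgeR, 3 and 0 without quality weights, 64 and 90 with filterByExpr, 96 and 144 without a filter, 100 and 93 without the GC trend, 59 and 55 without Con+Veh 2 and STZ-HFD 4, and 660 and 513 with the block. Single libraries left out moved the calls to between 12 and 293 up and 2 and 99 down in db/db, 3 and 311 up and 14 and 368 down in STZ-HFD, and 3 and 218 up and 1 and 274 down for the difference. Gene totals from transcript counts and isoform shares were not run, because transcripts of these genes were not analysed here. *Dancr* had the fewest counts of the 8 genes, as few as 8 in Con+Veh 1, itself a library of 46208264 counts. The interval of *Dancr* in STZ-HFD (-1.55 to 0.93) was the widest of either model.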
